A study of Homo sapiens with 3 samples.

Results

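The transcripts of 38 genes of glycolysis and of the response to hypoxia were examined in HCT-116 cells, a colon carcinoma line with wild-type *APC* and a mutant, degradation-resistant β-catenin (CTNNB1ΔSer45). The rule that selects the genes is a list of names and uses no measured value, although the list was drawn up with earlier results of these libraries known, and all 38 were found among the 23131 gene symbols of the deposited table, *PKM* under its older symbol *PKM2*. The series holds 3 libraries of total RNA from cells transfected on consecutive days and harvested 48 hours after the second transfection, with 1 library each for pooled anti-*APC* siRNA, pooled scrambled siRNA and no siRNA. The last is titled untransfected, while its treatment label says that it received the transfection reagent alone. Since the library with scrambled siRNA was not analysed here, every ratio below is anti-*APC* siRNA over untransfected, and effects of *APC* silencing and of siRNA delivery cannot be told apart. With 1 library per condition there is no replicate error and no test between conditions, and in bulk RNA a smaller number of expressing cells and less RNA per cell cannot be told apart.

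Glycolysis converts glucose to pyruvate in the cytosol. Glucose enters through facilitative transporters, is phosphorylated and split in the upper part of the pathway, and yields ATP and pyruvate in the lower part, after which lactate dehydrogenase makes lactate for export by monocarboxylate transporters. Many of these genes are induced when oxygen is low by the hypoxia-inducible factors (HIF), whose alpha subunits HIF-1α and HIF-2α are marked for degradation by oxygen-dependent prolyl hydroxylases. HIF proteins are controlled mainly by stability, so the transcript of an alpha subunit does not report its activity. Colon cancers are known for high glucose uptake, and *PDK1* and *SLC16A1* have been described as targets of WNT signaling in colon cancer cells.

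Levels are given as FPKM, the authors' measure of fragments corrected for transcript length and library size, and differences as the log2 of the FPKM ratio without a pseudocount. *APC* had 3.43 FPKM in the anti-*APC* library and 9.15 FPKM in the untransfected library, so the library labelled as silenced held 0.375 of the transcript. The epithelial markers *EPCAM*, *CDH1*, *KRT8*, *KRT18*, *KRT19* and *CDX2* were present in both libraries, whereas *VIL1* was listed at 0 in untransfected cells and at 0.0313 FPKM with anti-*APC* siRNA. Of 7 markers of blood, stroma and endothelium, 5 were under 1 FPKM, the others being *CD68* and *COL1A1*. The table gives no read counts, but 315 of the 1659 genes with a mean below 0.1 FPKM shared a single ratio within 0.004 on the log2 scale. An equal small number of reads in both libraries would give this ratio, so 1 read was worth 0.131 more log2 units of FPKM in the anti-*APC* library. With the transcript lengths of GENCODE 44 the depth was near 25000000 reads for the untransfected and 22900000 for the anti-*APC* library. The counting errors below follow from these estimates, cover counting error alone and say nothing of variation between cultures. Over the 36 genes averaging 1 FPKM or more, their median was 0.040 on the log2 scale and the highest was 0.29, for *ANKRD37*.

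Promoter sequences are shown for 4 of the genes that differed at least 1.5-fold, *SLC2A1* among the higher and *ALDOC*, *ANKRD37* and *PFKFB4* among the lower genes. No promoter was listed for *SLC2A3*, and those of *PFKFB3* and *EPAS1* are not shown. The sequences run from 250 bases before to 50 bases after an annotated start in RefSeq on GRCh38.p14. Capitals mark ACGTG or GCGTG on either strand, the core letters that HIF recognises in hypoxia response elements. The palindrome CACGTG, an E-box, holds ACGTG on both strands and counts as a match on each. The positions are chr1:42958819-42959118 on the minus strand for *SLC2A1*, chr17:28576846-28577145 on the minus strand for *ALDOC*, chr4:185396591-185396890 on the plus strand for *ANKRD37* and chr3:48556754-48557053 on the minus strand for *PFKFB4*.
SLC2A1: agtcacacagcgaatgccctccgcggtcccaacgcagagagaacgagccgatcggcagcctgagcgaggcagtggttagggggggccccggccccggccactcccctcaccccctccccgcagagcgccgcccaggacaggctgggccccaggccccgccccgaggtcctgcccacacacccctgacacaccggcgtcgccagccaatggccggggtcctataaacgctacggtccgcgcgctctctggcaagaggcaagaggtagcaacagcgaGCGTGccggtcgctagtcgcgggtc
ALDOC: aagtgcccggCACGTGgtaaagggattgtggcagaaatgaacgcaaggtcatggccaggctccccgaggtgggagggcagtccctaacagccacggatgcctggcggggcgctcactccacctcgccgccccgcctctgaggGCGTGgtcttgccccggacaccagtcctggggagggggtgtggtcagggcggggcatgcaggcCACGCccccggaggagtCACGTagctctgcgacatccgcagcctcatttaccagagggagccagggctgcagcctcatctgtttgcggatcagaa
ANKRD37: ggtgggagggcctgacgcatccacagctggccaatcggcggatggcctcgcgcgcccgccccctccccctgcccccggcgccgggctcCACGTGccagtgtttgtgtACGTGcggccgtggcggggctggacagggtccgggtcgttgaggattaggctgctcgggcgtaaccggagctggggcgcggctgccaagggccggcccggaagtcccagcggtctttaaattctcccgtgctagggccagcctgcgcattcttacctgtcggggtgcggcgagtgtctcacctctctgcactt
PFKFB4: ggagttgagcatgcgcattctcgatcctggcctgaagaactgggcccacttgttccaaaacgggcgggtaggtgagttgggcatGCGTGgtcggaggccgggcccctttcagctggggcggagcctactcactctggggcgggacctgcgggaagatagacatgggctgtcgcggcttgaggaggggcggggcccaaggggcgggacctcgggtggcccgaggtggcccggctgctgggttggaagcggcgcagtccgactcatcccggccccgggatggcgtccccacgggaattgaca

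*ALDOC* held 5 matches in this window and *ANKRD37* held 3, and in each of them 1 E-box supplied 2 of the matches. *PFKFB4* and *SLC2A1* held 1 match each. Promoters were listed for 33 of the 38 genes, with 60 entries because several genes have more than 1 start. A match was present in 40 of these 60 entries, or 66.7%, against 61.7% of 12055 promoters of genes with a mean of at least 1 FPKM and 48.4% of all 35116 promoters of the same length. All 6 entries of the 5 genes at least 1.5-fold lower with anti-*APC* siRNA held a match, and so did the single entry listed for a gene at least 1.5-fold higher, *SLC2A1*. A match is a run of letters and was not tested for binding.

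The glucose transporter genes *SLC2A1* and *SLC2A3* were higher with anti-*APC* siRNA, while 31 of the 36 genes with a mean of at least 1 FPKM were lower, most of them slightly. The median log2 ratio over the 36 was -0.19, against -0.05 over all 12063 genes with such a mean. A log2 ratio below 0 was found in 86.1% of the 36 genes and in 58.6% of all genes. In the anti-*APC* library 2 of the 36 genes, or 5.56%, were at least 1.5-fold higher, against 2.56% of all genes, and 5 of the 36, or 13.9%, were at least 1.5-fold lower, against 6.61% of all genes. These 5 were *ALDOC*, *PFKFB3*, *PFKFB4*, *ANKRD37* and *EPAS1*. The remaining members *CA9* and *CA12* averaged less than 1 FPKM and are described apart.

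**Figure D1:**
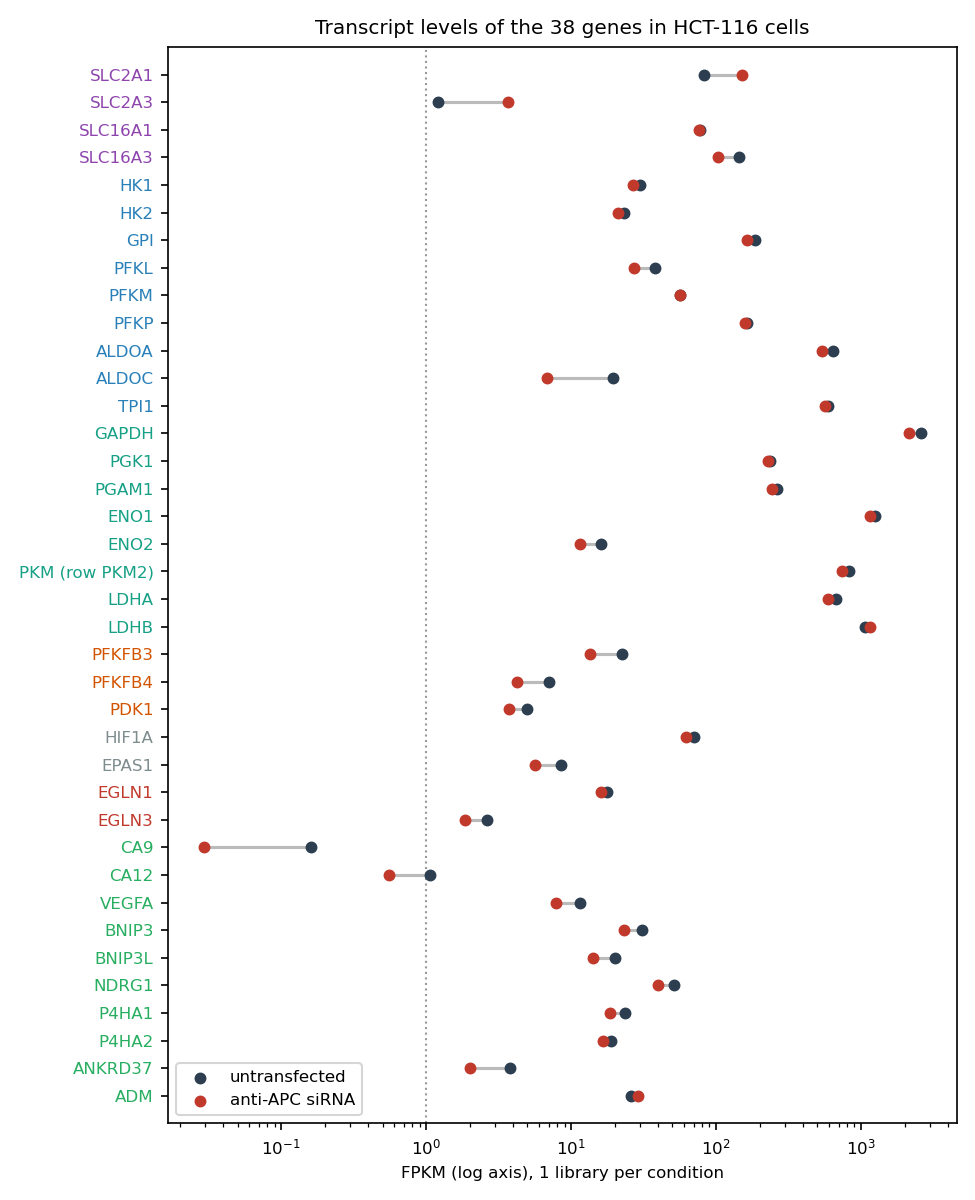
FPKM of the 38 genes on a log axis, in pathway order from glucose transport to hypoxia-inducible genes, with 1 point per library and a dotted line at 1 FPKM. The levels span from *CA9*, below 1 FPKM in both libraries, to *GAPDH*, above 2000 FPKM in both, and most anti-*APC* points lie to the left of the untransfected points.

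Genes of low expression were lower more often in the whole table, so each gene was also placed beside genes of like level. Among genes of 1 to 10 FPKM the median log2 ratio was -0.13, and 11.5% were at least 1.5-fold lower. Among those of 10 to 100 FPKM the median was -0.02 with 3.02% lower, and at 100 FPKM or more it was 0.02 with 4.22% lower. The 7 members of the lowest class had a median of -0.54, the 16 of the middle class -0.26 and the 13 of the highest class -0.13. In each class the members' median was thus below that of all genes. In all, 31 of the 36 members lay below the median of their class. The middle 90% of genes ranged from -0.80 to 0.45 in the lowest class, from -0.48 to 0.34 in the middle class and from -0.53 to 0.51 in the highest, and 30 of the 36 members lay inside the range of their class. Below it were *ALDOC*, *PFKFB3*, *ANKRD37* and *BNIP3L*, and above it were *SLC2A1* and *SLC2A3*.

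**Figure D2:**
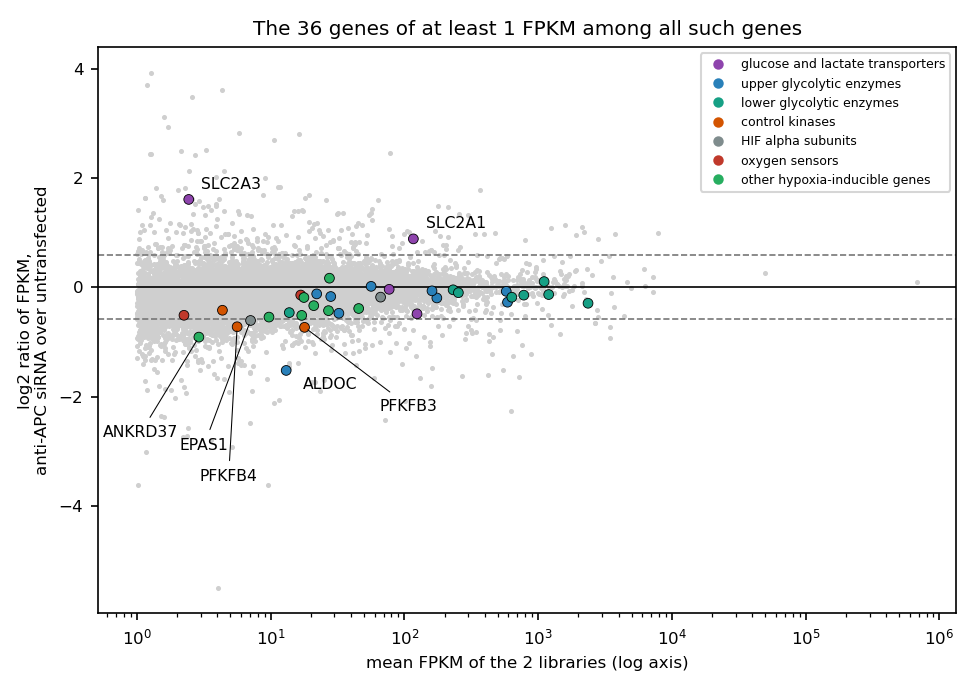
Log2 ratio of FPKM, anti-*APC* siRNA over untransfected, against the mean FPKM of both libraries on a log axis, for all 12063 genes of at least 1 FPKM (grey) and the 36 members of at least 1 FPKM (coloured by role). Dashed lines mark 1.5-fold, and the 7 members beyond them are named: *SLC2A1* and *SLC2A3* above, *ALDOC*, *PFKFB3*, *PFKFB4*, *ANKRD37* and *EPAS1* below.

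*SLC2A1* encodes GLUT1, the glucose transporter of most proliferating cells. It lies on the minus strand of chromosome 1 of GRCh37 from 43391024 to 43424564 by GENCODE 44. *SLC2A1* had 151 FPKM in the anti-*APC* library against 81.9 FPKM in the untransfected one and was 1.85-fold higher. The log2 ratio was 0.89 with a counting error of 0.022, and it exceeded the range of the middle 90% of genes at its level. Cuffdiff placed it at 1 locus with *FLJ32224*, which had 0.765 FPKM with and 0.581 FPKM without the siRNA. The partner is thus far less abundant than *SLC2A1* in both libraries.

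*SLC2A3* encodes GLUT3, a transporter of high affinity for glucose that is best known from neurons. It lies on the minus strand of chromosome 12 from 8071826 to 8171603. *SLC2A3* had 3.68 against 1.21 FPKM and was 3.05-fold higher with anti-*APC* siRNA, with a log2 ratio of 1.61 with a counting error of 0.16. After adding 1 FPKM to both levels the log2 ratio was 1.08. The close paralog *SLC2A14* had 0.687 FPKM with and 0.127 FPKM without anti-*APC* siRNA, also higher. Of the distinct 36-base stretches in *SLC2A3* transcripts, 19.4% also occur in transcripts of *SLC2A14*, so how reads were divided between them is uncertain. *SLC2A3* contributed 2.37% of the summed FPKM of both transporters with anti-*APC* siRNA and 1.45% in untransfected cells, so *SLC2A1* was the main transporter transcript in both. The sum of *SLC2A1* and *SLC2A3* was 155 FPKM with anti-*APC* siRNA against 83.1 FPKM. Of the other hexose transporters examined outside the list of 38, those averaging at least 1 FPKM were not higher. *SLC2A6* had 2.50 against 3.79 FPKM and *SLC2A8* had 4.46 against 5.34 FPKM, with log2 ratios of -0.60 and -0.26. Below 1 FPKM, besides *SLC2A14*, *SLC2A4* was higher (0.956 against 0.651 FPKM) and *SLC2A12* lower (0.683 against 0.939 FPKM).

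The monocarboxylate transporters, which export lactate at the other end of the pathway, were not higher. *SLC16A1*, encoding MCT1, had 76.0 FPKM with and 77.9 FPKM without anti-*APC* siRNA, a log2 ratio of -0.03 whose sign turned when ratios were centred on the median of all genes. *SLC16A3*, encoding the hypoxia-inducible lactate exporter MCT4, had 104 FPKM with and 145 FPKM without, a log2 ratio of -0.48. The share of *SLC16A1* in the sum of both was 42.3% with the siRNA and 35.0% without. This was the widest difference in share among the isoenzyme families, apart from that of *CA9* and *CA12*, which were barely expressed.

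The upper glycolytic enzymes were slightly lower with anti-*APC* siRNA, apart from *PFKM* and *ALDOC*. The hexokinases *HK1* (26.5 against 29.8 FPKM) and *HK2* (21.2 against 23.0 FPKM), which trap glucose in the cell, had log2 ratios of -0.17 and -0.12. *GPI*, the isomerase that follows, had 163 FPKM with and 187 FPKM without anti-*APC* siRNA. Phosphofructokinase, the committed step, was encoded mainly by *PFKP*, at 65.2% of the family's summed FPKM with the siRNA and 63.7% without. *PFKP* had 157 against 164 FPKM and *PFKM* 56.7 against 56.0 FPKM. *PFKL*, the liver-type subunit, had 27.1 FPKM with and 37.6 FPKM without anti-*APC* siRNA. Its log2 ratio of -0.47 was the lowest of the 3 subunits, and its share was 11.2% with the siRNA and 14.6% without. *TPI1*, triosephosphate isomerase, had 563 against 592 FPKM.

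*ALDOC* had the lowest ratio of the 36 members above the level filter. It encodes aldolase C, the isoform typical of brain and a known HIF target, and lies on the minus strand of chromosome 17 of GRCh37 from 26900133 to 26903966. *ALDOC* had 6.77 against 19.4 FPKM, so that 0.349 of its untransfected level was present in the anti-*APC* library. The log2 ratio was -1.52 with a counting error of 0.11, and after adding 1 FPKM to both levels it was -1.39. Of the 36 members above the level filter, 1 was at least 2-fold lower, *ALDOC*, and of all genes 1.37%. *ALDOA*, the main aldolase, had 535 FPKM with and 645 FPKM without anti-*APC* siRNA. *ALDOC* made up 2.92% of aldolase FPKM in untransfected cells and less with anti-*APC* siRNA, and the sum of both was at 0.815 of the untransfected level.

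The lower enzymes included the most abundant transcripts of the pathway and differed little between the libraries. *GAPDH* had 2123 FPKM with and 2595 FPKM without anti-*APC* siRNA, a log2 ratio of -0.29. *ENO1*, the main enolase, had 1144 against 1253 FPKM, and *PKM*, pyruvate kinase, had 742 against 819 FPKM. *PGK1* (228 against 235 FPKM) and *PGAM1* (245 against 262 FPKM) had log2 ratios of -0.04 and -0.10, the former turning sign when centred on the median of all genes. *ENO2*, the enolase isoform typical of neurons, had 11.6 against 16.0 FPKM and a log2 ratio of -0.46. None of the 8 lower enzymes reached 1.5-fold. The 17 enzymes from hexokinase to lactate dehydrogenase summed to 7794 FPKM in the anti-*APC* and 8675 FPKM in the untransfected library, a log2 ratio of -0.15. Their levels in untransfected cells spanned a 163-fold range, so this sum is governed by the abundant enzymes of the lower part and by *ALDOA* and *TPI1*.

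Lactate dehydrogenase is a tetramer of subunits encoded by *LDHA*, the HIF-induced form, and *LDHB*. *LDHA* had 596 FPKM with and 675 FPKM without anti-*APC* siRNA, and *LDHB* had 1149 with and 1067 without. The former was lower and the latter higher, with log2 ratios of -0.18 and 0.11. Their sum was 1745 FPKM with the siRNA and 1743 FPKM without, a ratio of 1.00, while the share of *LDHA* was 34.1% with the siRNA and 38.7% without. *LDHB* was thus the more abundant subunit transcript in both libraries. In 11 of the 13 families examined the paralogs had shares within 5 percentage points of those in untransfected cells, the exceptions being the *SLC16A1* and *CA9* families. This cut says little of families in which 1 gene supplied nearly all of the FPKM. *ALDOC*, *SLC2A3* and *ENO2* made up 2.92%, 1.45% and 1.26% of their families in untransfected cells, so no fall could reach 5 points. The FPKM ratio was 0.349 for *ALDOC* and 3.05 for *SLC2A3*, yet both families are among the 11.

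**Figure D3:**
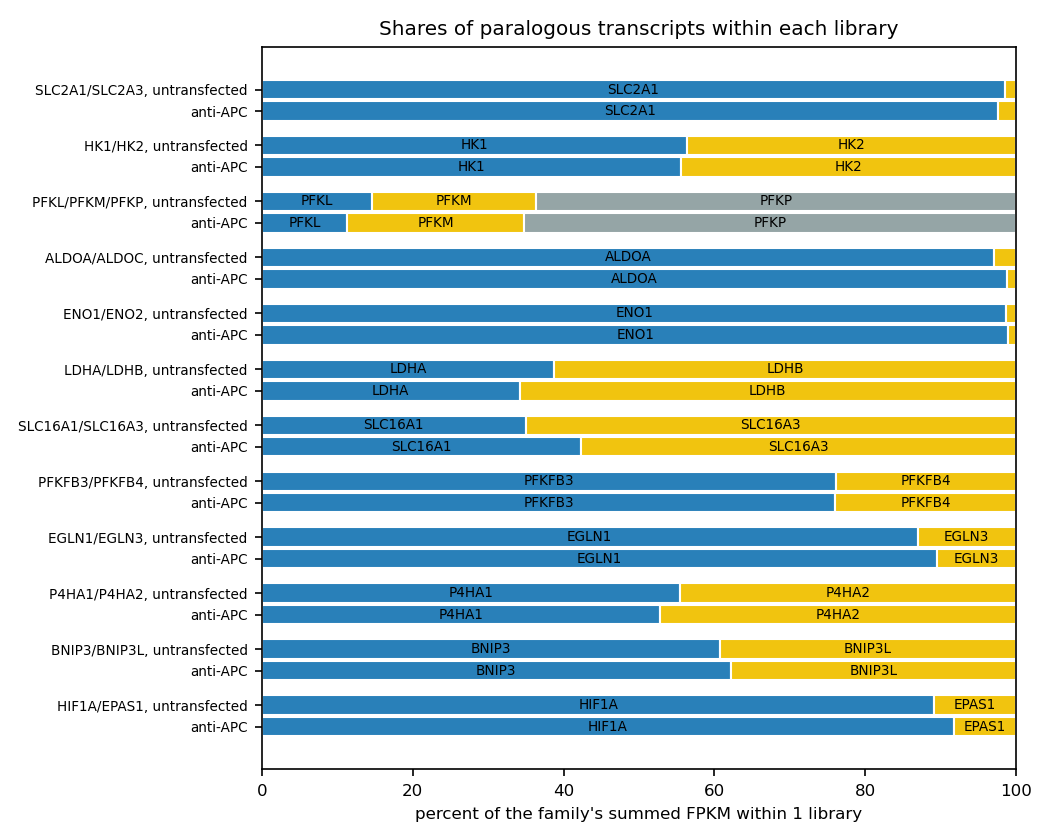
Percent of a family's summed FPKM contributed by each paralog, with the untransfected library above the anti-*APC* library in each pair of bars, for 12 families (*CA9* and *CA12* are left out because both averaged below 1 FPKM). The share of *SLC16A1* goes from 35.0% to 42.3% and that of *LDHA* from 38.7% to 34.1%, while *PFKFB3* stays near 76% of its sum with *PFKFB4*.

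The 3 listed kinases that set the flow through the pathway were lower. *PFKFB3* and *PFKFB4* encode bifunctional enzymes that make fructose 2,6-bisphosphate, the activator of phosphofructokinase, and both are known HIF targets. *PFKFB3*, on the plus strand of chromosome 10 from 6186897 to 6296607, had 13.5 against 22.4 FPKM. This was 0.603 of the untransfected level, a log2 ratio of -0.73 with a counting error of 0.048. It shares its locus with *MIR3155* and *MIR3155B*, both listed at 0. *PFKFB4*, on the minus strand of chromosome 3 from 48555117 to 48599448, had 4.25 against 6.99 FPKM, or 0.607 of the untransfected level, with a log2 ratio of -0.72 and a counting error of 0.098. The difference of *PFKFB4* was inside the middle 90% of genes at its level, and that of *PFKFB3* was outside. Since both were lower by nearly the same factor, the share of *PFKFB3* in the sum of these 2 genes was 76.1% with the siRNA and 76.2% without. Their paralog *PFKFB2*, outside the list of 38, was higher, with 9.26 against 7.96 FPKM. Its log2 ratio of 0.22 was inside the middle 90% of genes at its level. *PDK1*, which inhibits pyruvate dehydrogenase and so keeps pyruvate from the mitochondrial oxidation pathway, had 3.74 against 4.99 FPKM and a log2 ratio of -0.42.

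The HIF alpha subunits and the listed oxygen sensors *EGLN1* and *EGLN3* were also lower in the anti-*APC* library. None of them was beyond the middle 90% of genes of like level. *HIF1A* had 62.3 FPKM with and 70.5 FPKM without anti-*APC* siRNA, a log2 ratio of -0.18. *EPAS1*, which encodes HIF-2α and lies on chromosome 2 from 46520806 to 46613836, had 5.62 against 8.54 FPKM. Its log2 ratio of -0.60 was just past 1.5-fold, and it was no longer past it when ratios were centred on the median of all genes (-0.55) or with a pseudocount of 1 FPKM (-0.53). *HIF1A* made up 91.7% of the summed FPKM of both subunits with the siRNA and 89.2% without. *EGLN1*, encoding the main HIF prolyl hydroxylase PHD2, had 16.0 against 17.6 FPKM. *EGLN3*, encoding the hypoxia-induced hydroxylase PHD3, had 1.86 against 2.64 FPKM, a log2 ratio of -0.51 with a counting error of 0.17. Other HIF hydroxylase genes, outside the list of 38, were slightly higher. *EGLN2* had 21.9 against 20.1 FPKM and *HIF1AN* 25.8 against 24.3 FPKM, with log2 ratios of 0.12 and 0.08. The partner subunit *ARNT* had 13.9 FPKM in the anti-*APC* library and a log2 ratio of 0.00, and *VHL*, the recognition subunit of the ligase that marks HIF for degradation, had a log2 ratio of -0.04.

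Of the 12 hypoxia-inducible genes outside the glycolytic pathway, *EGLN1* and *EGLN3* included, 10 averaged at least 1 FPKM. Their median log2 ratio was -0.41, and 9 of the 10 were lower with anti-*APC* siRNA, against 58.6% of all genes. At least 1.5-fold lower was 1 of the 10, or 10.0% against 6.61% of all genes. Inside the middle 90% of genes of like level were 8 of the 10. The median of the 24 glycolytic enzymes, kinases and transporters was -0.15, and 20 of the 24 were lower. *ANKRD37*, a HIF target encoding an ankyrin repeat protein, had 2.02 FPKM with and 3.80 FPKM without anti-*APC* siRNA, a log2 ratio of -0.91 with a counting error of 0.29. It lies on the plus strand of chromosome 4 from 186317175 to 186321782 and shares its locus with *UFSP2*, which is more abundant and had 15.1 against 15.6 FPKM.

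*VEGFA*, the angiogenic growth factor, had 7.91 against 11.5 FPKM and a log2 ratio of -0.54, just short of 1.5-fold. The mitophagy receptors *BNIP3* (23.1 against 31.0 FPKM) and *BNIP3L* (14.1 against 20.1 FPKM) had log2 ratios of -0.42 and -0.51. *NDRG1*, a stress-induced gene, had 39.5 against 51.6 FPKM. The collagen prolyl hydroxylase subunits *P4HA1* (18.6 against 23.4 FPKM) and *P4HA2* (16.6 against 18.9 FPKM) had log2 ratios of -0.33 and -0.18. The exception was *ADM*, which encodes the vasodilator peptide adrenomedullin. *ADM* had 29.1 FPKM with and 25.9 FPKM without anti-*APC* siRNA, a log2 ratio of 0.17 with a counting error of 0.065.

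**Figure D4:**
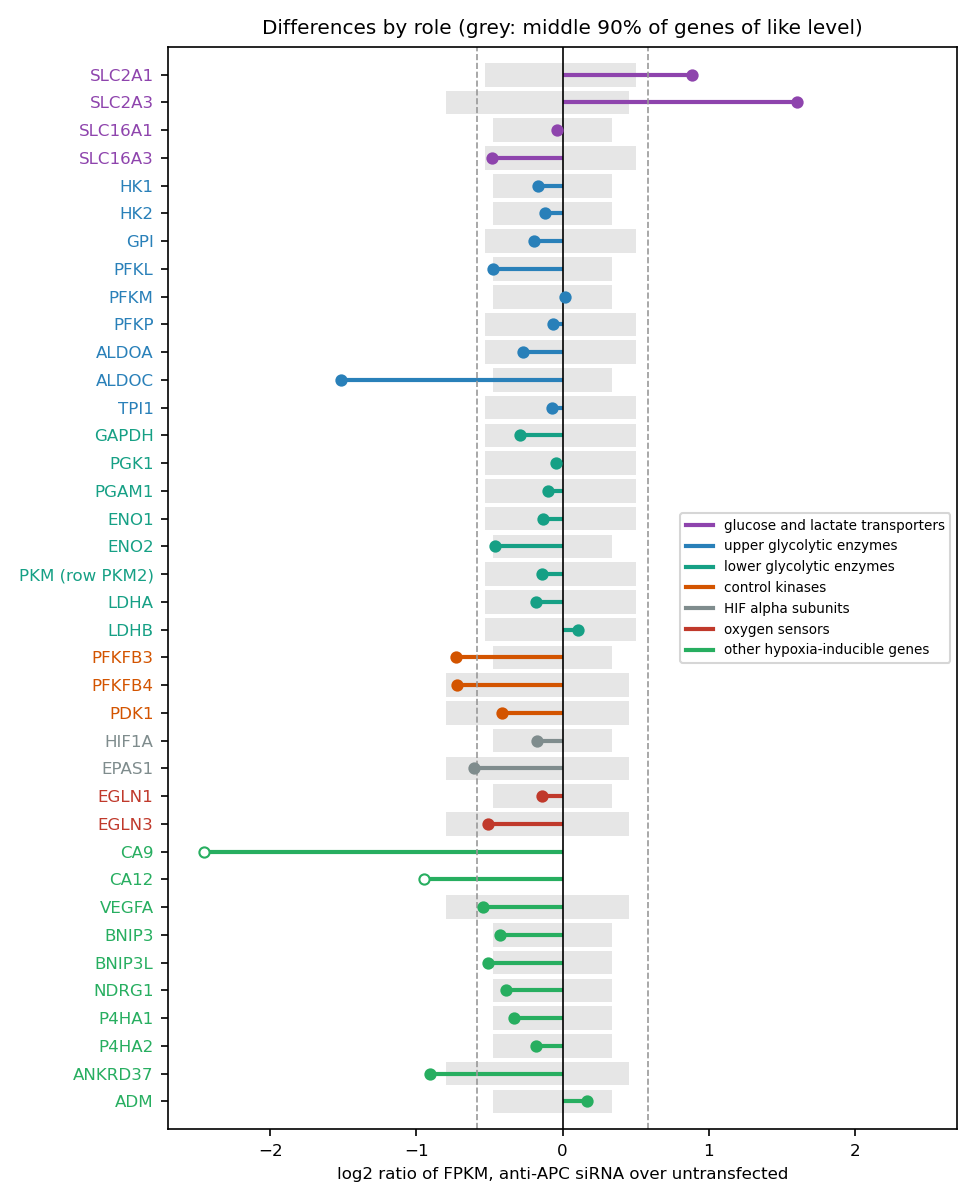
Log2 ratio of FPKM, anti-*APC* siRNA over untransfected, for the 38 genes in pathway order and coloured by role, with 1.5-fold as dashed lines. Grey bars span the middle 90% of all genes of like level, and open circles mark *CA9* and *CA12*, which averaged below 1 FPKM and have no bar. *SLC2A1* and *SLC2A3* stand to the right of their bars, and *ALDOC*, *PFKFB3*, *BNIP3L* and *ANKRD37* to the left.

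The carbonic anhydrases *CA9* and *CA12*, which regulate pH at the cell surface, averaged less than 1 FPKM, and *CA9* was at the limit of detection. *CA12* had 0.550 FPKM with and 1.06 FPKM without anti-*APC* siRNA, a log2 ratio of -0.95 with a counting error of 0.20. *CA9*, among the most strongly hypoxia-induced genes known, had 0.0294 against 0.161 FPKM. Its ratio, corrected for the value of 1 read, equals that of 1 to 6 reads, and its level and transcript length give 1.0 and 6.2 reads. The ratio was 0.183 with an exact 95% counting interval from 0.00397 to 1.5, so a difference in *CA9* was not detectable at this depth.

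Several members have near-identical copies that can share reads. Numbered pseudogenes of the same name are annotated for 17 of the 38 genes, among them 65 for *GAPDH*, 44 for *BNIP3* and 13 for *PGAM1*. *PGAM4*, an X-linked retrocopy of *PGAM1*, was listed at 75.4 FPKM with and 82.6 FPKM without anti-*APC* siRNA. Of the distinct 36-base stretches of *PGAM4*, 46.6% also occur in *PGAM1*. The levels of these genes are therefore less certain than their counting errors state. Of the 38 genes, 6 lay at a locus with another row, among them *SLC2A1*, *PFKFB3* and *ANKRD37*. Some genes examined outside the list of 38 also did so, among them *EGLN2*, *MPC2*, *KDELR3* and *LOXL2*.

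A wider list of 53 HIF targets and HIF control genes, chosen with earlier results of these libraries known, held a few clearly lower genes among many with small differences. Of its genes, 41 averaged at least 1 FPKM, with a median log2 ratio of -0.12 against -0.05 for all genes. Without the filter on level its median was -0.06, as was that of all genes. Of the 41, none was at least 1.5-fold higher and 7 were at least 1.5-fold lower, or 17.1% against 6.61% of all genes. *ANGPTL4*, which encodes an inhibitor of lipoprotein lipase induced by HIF and by PPAR receptors, had 2.06 FPKM with and 7.70 FPKM without anti-*APC* siRNA, a log2 ratio of -1.90. *DDIT4*, an inhibitor of mTORC1 signaling also known as REDD1, had 21.7 against 49.9 FPKM. *BHLHE40*, a transcriptional repressor of the circadian and hypoxic response, had 18.7 against 38.9 FPKM. *KDELR3*, a receptor that returns proteins to the endoplasmic reticulum, had 13.7 against 27.9 FPKM. These 4 were at least 2-fold lower. *PLOD1*, a collagen lysyl hydroxylase, had 55.2 against 98.0 FPKM. *LOXL2*, a lysyl oxidase that cross-links collagen, had 2.91 against 5.02 FPKM, and *LPIN1*, a phosphatidate phosphatase, had 2.62 against 3.99 FPKM. The canonical targets *KDM3A*, a histone demethylase, and *FAM162A*, a mitochondrial protein, had log2 ratios of -0.27 and -0.40, and *PLOD2*, another collagen lysyl hydroxylase, had -0.40. At the other end *HMOX1*, heme oxygenase 1, had the highest log2 ratio among the 41 genes, 0.55, with 33.6 against 22.9 FPKM.

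**Figure D5:**
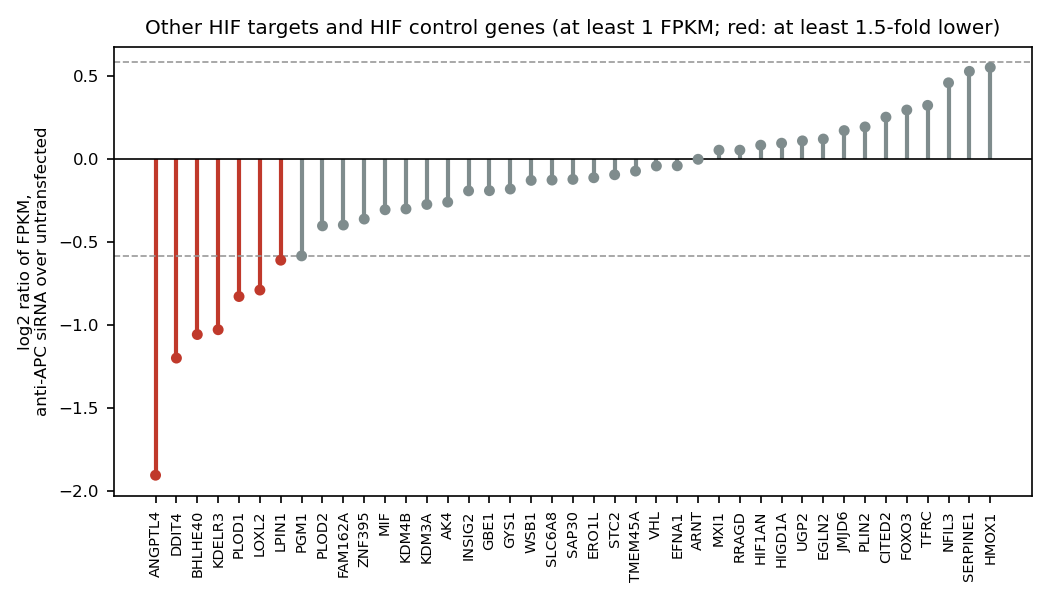
Log2 ratio of FPKM, anti-*APC* siRNA over untransfected, for the 41 of 53 further HIF targets and control genes with a mean of at least 1 FPKM, in order of their ratio. Dashed lines mark 1.5-fold, and the 7 genes at least 1.5-fold lower are in red, from *ANGPTL4* at -1.90 to *LPIN1* at -0.61.

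Epithelial markers were lower in the anti-*APC* library, as were most members. The 6 markers with a mean of at least 1 FPKM had log2 ratios from -0.65 for *CDH1* to -0.12 for *CDX2*, a median of -0.35, and the 7 together summed to 1294 FPKM with and 1649 FPKM without anti-*APC* siRNA. Of all genes 58.6% were lower, and of the 6 markers only *CDH1* lay outside the middle 90% of genes of like level. *KRT8* and *KRT18* have 51 and 67 numbered pseudogenes, so their levels are less certain. The 7 markers of other cell types summed to 8.16 FPKM with and 11.9 FPKM without. Most of this sum came from *CD68*, at 5.01 against 8.91 FPKM, while *COL1A1* had 3.08 against 2.85 FPKM. The part of all these markers in the differences above was not tested.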

How the data were processed

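RNA-seq libraries were prepared by the authors from HCT-116 cells as single-read TruSeq libraries. The authors assigned reads with Cufflinks and deposited the FPKM of each gene, from Cuffdiff, in the untransfected and the anti-*APC* library. The build is hg19 per the submitters' processing notes. The aligner, annotation, software versions and use of strand are not given in the sources used here. The deposited table also holds the authors' own natural log ratio, test statistic, *p*-value, *q*-value and call for this comparison, none of which was used. Cuffdiff's status was OK for all 38 genes.

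Genes above 0 in both libraries with a mean of at least 1 FPKM (12063 of 23131 rows) formed the background. Another 5218 rows were listed at 0 in both libraries and 1624 in one, for which no ratio was formed. A fold of 1.5 was used for counts, and no test was made, since each condition has 1 library. The members and lists were chosen with earlier results of these data known. Named genes are all members, *APC*, and genes of the further lists past 1.5-fold, and genes of those lists named besides them (*ARNT*, *VHL*, *HMOX1*, *SLC2A14*, *PGAM4* and others) were chosen after their values were seen. Depth was estimated from genes below 0.1 FPKM at the commonest ratio, taking FPKM times length in kilobases from 0.025 to 0.06 in the untransfected library as 1 read (125 genes). Reads per gene then follow from the length of the canonical transcript of GENCODE 44 on GRCh37, which may differ from the authors' annotation. Calculations were tested on simulated data. The software was matplotlib 3.10.9, scipy 1.17.1, pandas 2.3.3 and numpy 2.4.6 under Python 3.11.15.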

Additional observations from a re-analysis of the deposited data

How the results depend on the processing

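No paired analysis was possible because each condition has 1 library. Alternatives with scrambled siRNA as the control were not run, since that library was not analysed here. Centring on genes of like level was chosen after the data were seen. The medians of all members and of the hypoxia-inducible genes stayed within 1.5 times of the values reported, from -0.23 to -0.14 and from -0.47 to -0.35. Centring on the median of all genes (then 0.00) moved the glycolytic genes to -0.10, the further HIF targets to -0.069 and the pyruvate list to -0.09. With no filter on level the further HIF targets were at -0.056 and the pyruvate list at -0.092, against -0.062 for all genes. The count of members at least 1.5-fold higher went from 2 of 36 to 1 of 32 with a mean of at least 5 FPKM (2.02% of all genes), which leaves out *SLC2A3*. It was 1 of 30 without members at shared loci, which leaves out *SLC2A1*, and 1 of 36 at 2-fold (0.953%). At a threshold of 0.32 on the log2 scale it was 2 of 36 (7.17% of all genes), and with no filter 2 of 38 (6.65%). Genes at shared loci were left out of the members alone, so the share of all genes stayed at 2.56%. The count at least 1.5-fold lower went from 5 of 36 to 3 of 30 without members at shared loci, with the share of all genes again unchanged (6.61%). It was 1 of 36 at 2-fold (1.37%) and 15 of 36 at a looser threshold of 0.32 on the log2 scale (18.4%). It was 4 of 36 when centred on all genes (5.40%) or on genes of like level (4.68%) and with a pseudocount of 1 FPKM (3.71%), in each case without *EPAS1*. With a mean of at least 5 FPKM it was 4 of 32 (3.77%), and with no filter 7 of 38 (12.8%). Members below the untransfected level numbered 29 of 36 when centred on all genes and 31 of 36 when centred on genes of like level, against 50.0% of all genes in both. The share of *CA9* in the sum with *CA12* differed by -8.10 percentage points, and by 3.87 with a pseudocount of 1 FPKM. Depth limits *CA9*, *CA12*, *EGLN3* and *ANKRD37* most.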

Other observations

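A further list held 28 genes that decide the fate of pyruvate or belong to gluconeogenesis and neighbouring pathways. Of these, 22 averaged at least 1 FPKM, with a median log2 ratio of -0.14 against -0.05 for all genes. With anti-*APC* siRNA 12 of the 22, or 54.5%, were lower, against 58.6% of all genes. The pyruvate dehydrogenase subunit gene *PDHA1* had 33.2 FPKM with and 31.8 FPKM without anti-*APC* siRNA. *PDP1*, a phosphatase that activates this complex, had 378 against 370 FPKM, and the other such phosphatase, *PDP2*, had 5.82 against 6.87 FPKM, a log2 ratio of -0.24. The kinases that inhibit this complex were lower, with log2 ratios of -0.41 for *PDK2*, -0.32 for *PDK3* and -0.76 for *PDK4*. The last had 0.794 against 1.35 FPKM with a counting error of 0.22. Each was inside the middle 90% of genes of like level. *PDK4* reached the level filter through the untransfected library alone. It was the only one of the 22 at least 1.5-fold lower, or 4.55% against 6.61% of all genes. *MPC2*, a subunit of the mitochondrial pyruvate carrier, had 43.5 against 31.8 FPKM, whereas its partner *MPC1* had 12.6 against 12.3 FPKM.

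Of 28 other isoforms of the pathway, 17 averaged less than 1 FPKM. Among the other 11, *ENO3*, the muscle enolase, had 1.00 against 1.74 FPKM and *SLC2A6*, a further hexose transporter, had 2.50 against 3.79 FPKM, and both were at least 1.5-fold lower, or 18.2% of the 11 against 6.61% of all genes and 11.5% of those of 1 to 10 FPKM. *BSG*, which encodes basigin, the chaperone that carries MCT1 and MCT4 to the cell surface, had 286 FPKM with and 283 FPKM without anti-*APC* siRNA.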
